A study of Zea mays with 2 samples.

Results

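The regions described here are the methylation peaks at the start of maize chromosome 1, from its first peak up to position 22623587, and above all those that lie on or beside a gene. They number 3613 in embryo and 1187 in endosperm, 4800 of the 469093 peaks in the 2 deposited lists. A gene part was listed for 866 of the embryo peaks and 366 of the endosperm peaks, 1232 gene-linked peaks in all. The other 2747 embryo and 821 endosperm peaks of the same stretch had no gene part and served as the comparison. The data come from MeDIP-seq (methylated DNA immunoprecipitation followed by sequencing), in which sheared DNA is captured with an antibody against methylated cytosine, so a peak marks a stretch rich in captured reads and not the state of single cytosines. One library was made from embryo and 1 from endosperm, both from self-pollinated ears of the inbred line B73 at 14 days after pollination, with no other treatment and no replicate library. All comparisons are therefore between 2 libraries, no test between tissues was possible, and the 95% Wilson and Newcombe intervals below cover counting error only. Neighbouring peaks are not independent, so these intervals are too narrow.

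In plants, cytosines are methylated in CG, CHG and CHH contexts (H is any base but G). Transposons are the most densely methylated sequences, and methylation reaching a promoter or a transcriptional termination region (TTR) often goes with a silent gene, whereas methylation of CG sites inside the body of a gene is also found in genes that are steadily expressed. The endosperm nourishes the embryo, and in flowering plants its maternal genome loses methylation at many sites through DNA glycosylases of the DEMETER type.

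Gene parts were taken from the study's gene-region listing of each tissue, where it gives a peak with the same start and end. The parts are promoter, 5' UTR, CDS or exon, intron, 3' UTR and TTR, and a peak counts under each part listed for it. The lengths of the promoter and TTR windows are not given in the sources used here. The listing names exactly 1 peak for each region of a transcript, 1999 regions in embryo and 873 in endosperm. Where a listed endosperm peak lay wholly within an embryo peak, that embryo peak was the one named for 280 of 346 such regions. In 65 of the other regions an embryo peak at a lower position was named instead. A second peak in the same promoter or intron can therefore stand among the peaks with no gene part, and this touches the denser embryo list more. Of the embryo peaks with no gene part, 550 (20.02%) lay within 5000 bp of a listed embryo peak, against 113 (13.8%) of those of endosperm.

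The 5' and 3' UTR entries of the listing were used as labels of peaks only, and not for genes. Nearly all peaks with a UTR entry also carried an exon entry, 46 of 47 embryo and 24 of 24 endosperm peaks for the 5' UTR, but in no case was it an exon of the transcript that the UTR entry names. Only 3 of the 149 genes named by UTR entries occurred in any other entry. In a present-day RefSeq annotation, 9 of 42 such genes (21.4%) lay on chromosome 1, against 207 of 209 genes (99.0%) named by the other entries. It is therefore not shown that a peak with a UTR entry lies on a UTR. UTR entries were kept as a class of peaks by label, and genes were counted and named without them.

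Promoters and TTRs held most of the gene-linked peaks in both tissues. In embryo, 453 peaks (52.3%, interval 49.0 to 55.6) were listed for a promoter and 404 (46.7%, 43.35 to 49.98) for a TTR. In endosperm these were 174 (47.5%, 42.5 to 52.7) and 180 (49.2%, 44.1 to 54.3). CDS or exon was listed for 187 embryo and 96 endosperm peaks, and intron for 173 and 86. The UTR classes were small, with 47 and 24 peaks for the 5' UTR and 65 and 33 for the 3' UTR. Any part of the gene body (UTR, CDS, exon or intron) was listed for 33.1% of the gene-linked embryo peaks (30.1 to 36.3) and for 40.4% of those of endosperm (35.5 to 45.5).

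**Figure D1:**
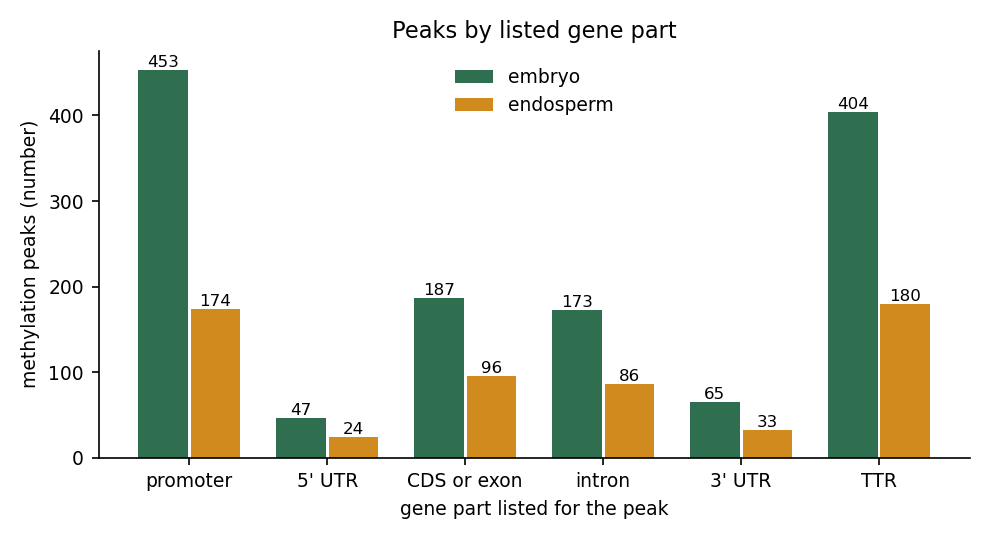
Number of methylation peaks (y axis) listed for each gene part (x axis) in embryo (green) and endosperm (orange), with a peak counted under every part listed for it. Promoter (453 and 174 peaks) and TTR (404 and 180) were the largest classes in both libraries, and embryo had more peaks than endosperm in every class.

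Among the peaks as listed, the surplus of embryo peaks was smaller on genes than away from them, a difference that depended on how unlisted neighbours were counted. Embryo had 2.37 times as many gene-linked peaks as endosperm (2.09 to 2.67), and 3.35 times as many peaks with no gene part (3.10 to 3.62). The ratio was 1.94 for peaks on any part of the gene body (1.59 to 2.36) and 2.66 for peaks on a promoter or TTR without a body part (2.27 to 3.10). These last intervals overlap, but that of the gene body lies wholly below that of the peaks with no gene part. Among single parts, the ratio was lowest for CDS or exon, at 1.95 (1.52 to 2.49), and the 5' UTR, at 1.96 (1.20 to 3.19), and highest for the promoter, at 2.60 (2.19 to 3.10). For the rest of chromosome 1 it was 3.13, and for the whole lists 3.06. When the 550 embryo and 113 endosperm peaks within 5000 bp of a listed peak were counted as gene-linked, a setting chosen after seeing the data, there were 1416 and 479 such peaks, and the ratio was 2.96 (2.67 to 3.28) on genes and 3.10 (2.85 to 3.38) elsewhere, with overlapping intervals. Neighbouring embryo peaks lay closer together (median gap 3246.5 bp) than those of endosperm (10488.5 bp). Density alone can thus bring more embryo peaks within 5000 bp of a listed peak. This setting therefore cannot show what naming 1 peak per region does to the ratio. A gene part taken over from a listed peak lying inside, also a later choice, gave 2.43 on genes and 3.32 elsewhere. There, only peaks holding a listed peak of the other tissue could change class. How far the listing lowers the ratio on genes was not tested. At a score of at least 100 the ratios were 4.54 on genes and 7.51 elsewhere. The score is the authors' value from the p-value of a peak, and its scale in each library bears on this last pair.

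Seen from each tissue, 24.0% of the embryo peaks (22.6 to 25.4) and 30.8% of the endosperm peaks (28.3 to 33.5) were gene-linked, a difference of 6.87 percentage points (3.94 to 9.88). With the peaks within 5000 bp counted as gene-linked, the shares were 39.2% (37.6 to 40.8) and 40.4% (37.6 to 43.2), and their intervals overlap. The closer spacing of embryo peaks bears on these shares as well. The share rose with the score in both libraries. In embryo it was 20.6% at scores from 50 to under 75, 24.2% in both middle classes (75 to under 100, and 100 to under 150) and 28.5% at 150 or more. In endosperm it was 28.3%, 31.2%, 36.4% and 39.1% in the same classes. Along the chromosome the share was uneven: over the 22 full windows of 1 Mb its median was 23.7% in embryo and 30.6% in endosperm. The 9th Mb was highest in both tissues, with 65 gene-linked embryo peaks (40.1%) and 32 gene-linked endosperm peaks (61.5%). The 21st Mb was lowest in both, at 14.3% and 6.52%, the latter being 3 of its 46 endosperm peaks. The part of the endosperm listing used here runs on to position 62527212. Beyond the segment, 480 of its 2015 endosperm peaks (23.8%, 22.0 to 25.7) were gene-linked, 7.01 points fewer than within it (3.82 to 10.3).

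Peaks shared by the tissues were counted as peaks overlapping one of the other tissue by at least 1 bp. In the whole lists 23.8% of embryo peaks and 74.3% of endosperm peaks did so. Of the gene-linked embryo peaks, 244 of 866 (28.2%, 25.3 to 31.3) overlapped an endosperm peak, against 639 of 2747 (23.3%, 21.7 to 24.9) with no gene part, a difference of 4.91 points (1.60 to 8.36). Gene-linked embryo peaks were thus shared slightly more often than the background. Embryo peaks on the gene body overlapped in 32.8% (27.6 to 38.4), those on a promoter or TTR without a body part in 25.9% (22.5 to 29.6), 6.85 points apart (0.48 to 13.4). By single part the embryo share was 44.7% for the 5' UTR (31.4 to 58.8), 41.5% for the 3' UTR (30.4 to 53.7), 35.3% for CDS or exon (28.8 to 42.4), 31.7% for TTR (27.3 to 36.4), 30.1% for intron (23.7 to 37.3) and 26.3% for promoter (22.4 to 30.5). The intervals of promoter and intron hold the background share, and those of the UTR classes, CDS or exon and TTR lie above it. The wide intervals of the parts overlap, so their order is not settled at these numbers. The UTR classes are labels of the listing only.

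In endosperm there was no such surplus: 270 of 366 gene-linked peaks (73.8%, 69.0 to 78.0) and 635 of 821 peaks with no gene part (77.3%, 74.4 to 80.1) overlapped an embryo peak. The difference was -3.57 points, with an interval (-9.04 to 1.61) that includes 0. By part the share ran from 66.7% for the 5' UTR, 16 of 24 peaks, to 75.6% for TTR, 136 of 180 peaks, and each interval holds the background share of 74.3%. Over all members of the segment, 24.4% of embryo and 76.2% of endosperm peaks overlapped, 0.94 points (-0.48 to 2.42) and 0.89 points (-1.71 to 3.32) above the rest of chromosome 1.

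**Figure D2:**
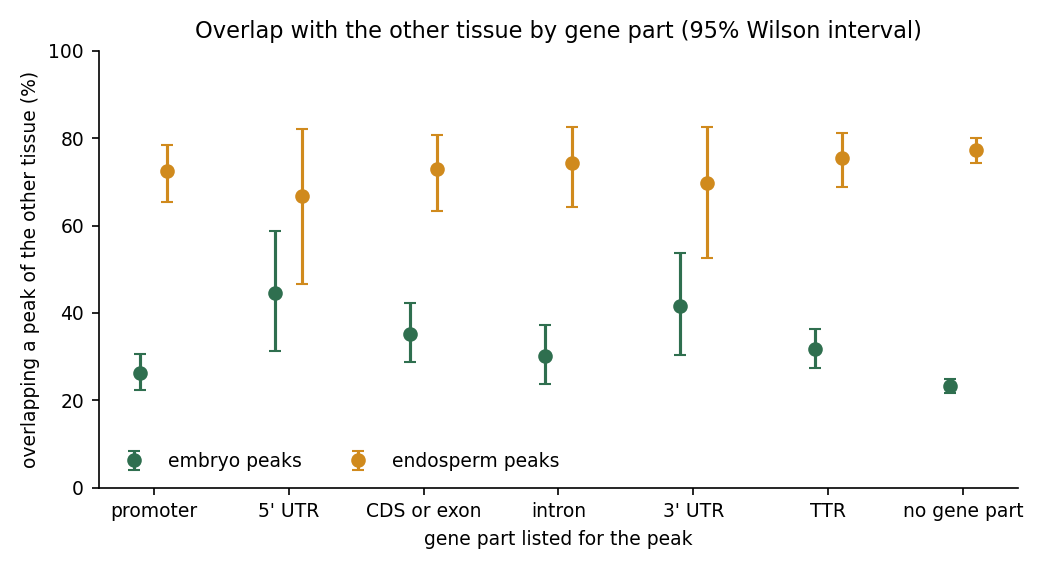
Share of peaks overlapping a peak of the other tissue by at least 1 bp (y axis, percent, with 95% Wilson intervals) for each listed gene part and for peaks with no gene part (x axis). Embryo shares (green) lie between 23.3% (no gene part) and 44.7% (5' UTR), endosperm shares (orange) between 66.7% (5' UTR) and 77.3% (no gene part).

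The overlap share rose with the score of the peak, and gene-linked embryo peaks had higher scores, so the values were set side by side within score classes. Of the gene-linked embryo peaks, 9.96% overlapped at scores from 50 to under 75, then 19.5%, 30.6% and 51.4% in the 3 higher classes. Embryo peaks with no gene part gave 9.61%, 14.9%, 27.3% and 48.8%. The gene-linked value was higher in all 4 classes, by 0.35, 4.65, 3.30 and 2.59 points, but each interval includes 0, so at like score the embryo difference was not detectable at these numbers. In endosperm the gene-linked peaks overlapped in 65.3%, 75.6%, 88.1% and 91.7%, against 67.8%, 87.8%, 93.2% and 100% (56 of 56 peaks, 93.6 to 100). The gene-linked value was lower in all 4 classes, and only at scores from 75 to under 100 did the interval of the difference exclude 0 (-12.1 points, -23.5 to -2.16).

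**Figure D3:**
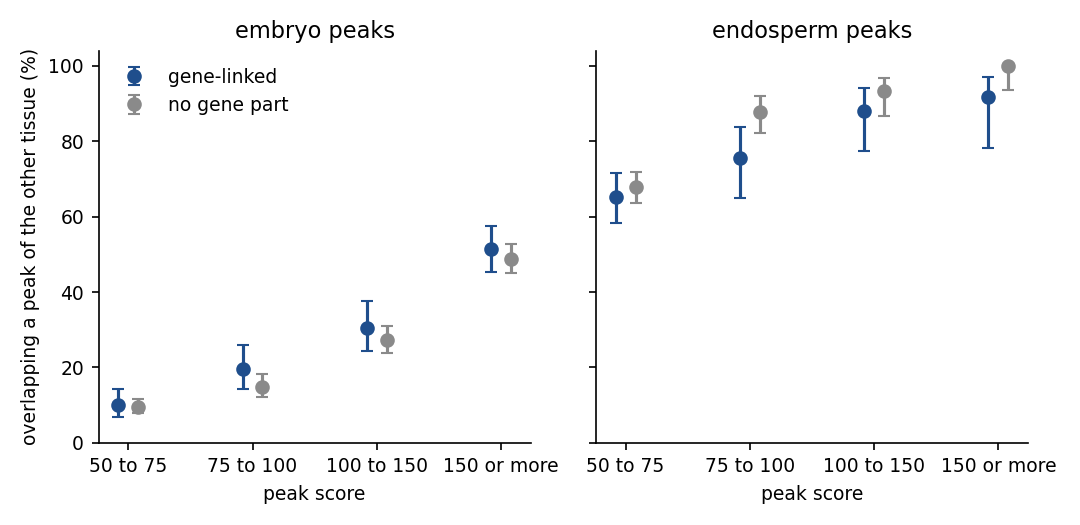
Share of peaks overlapping a peak of the other tissue (y axis, percent, with 95% Wilson intervals) by score class (x axis), for gene-linked peaks (blue) and peaks with no gene part (grey), in embryo (left) and endosperm (right). Within each score class the intervals of the 2 kinds of peak overlap in both tissues. In all 4 classes the gene-linked value is the higher one in embryo and the lower one in endosperm.

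Peak length differed more between tissues than between genes and the rest. The median length of gene-linked peaks was 274 bp in embryo (quartiles 210 and 371) and 218 bp in endosperm (164 and 274). Peaks with no gene part had medians of 281 bp and 212 bp. Peaks with UTR or exon entries were the longer ones in each tissue. Medians for peaks with a 5' UTR entry were 355 bp in embryo and 315.5 bp in endosperm. For CDS or exon they were 312 bp and 246.5 bp. Promoter peaks had medians of 269 bp and 219.5 bp and intron peaks of 285 bp and 198.5 bp. A longer peak can touch more gene parts, and the peaks listed for 1 kind of part alone had a median of 267 bp in embryo, against 306 bp for those with 3 or more kinds. Median scores were 99.7 for gene-linked and 90.4 for other embryo peaks, and 72.3 and 67.7 in endosperm.

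**Figure D4:**
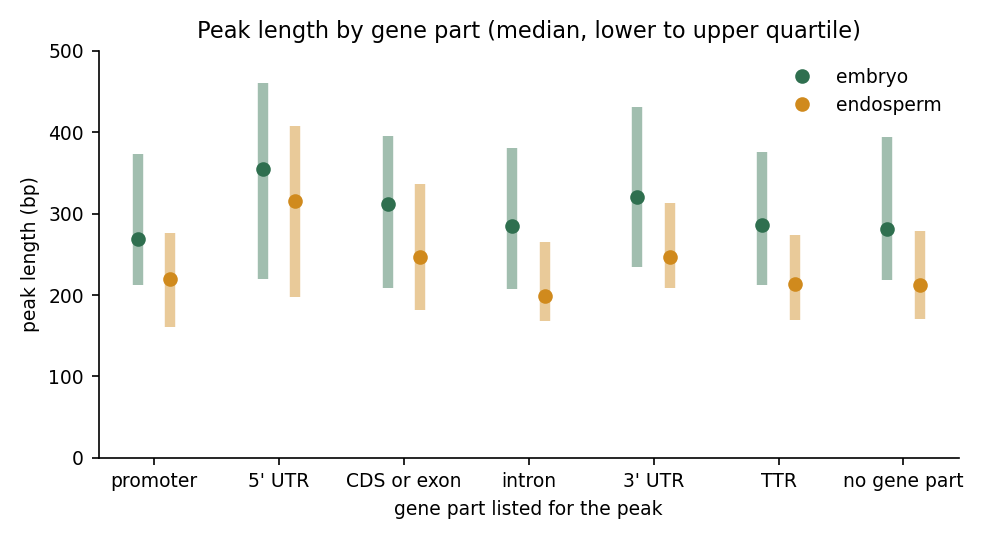
Peak length in bp (y axis) for each listed gene part and for peaks with no gene part (x axis) in embryo (green) and endosperm (orange), with points for the median and bars from the lower to the upper quartile. Embryo medians run from 269 bp (promoter) to 355 bp (5' UTR) and endosperm medians from 198.5 bp (intron) to 315.5 bp (5' UTR), and in every class the embryo median is the higher one.

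Where the tissues shared a gene-linked peak, the endosperm peak was mostly the shorter of the pair. Pairs of exactly 1 embryo and 1 endosperm peak were sorted by the listing of the embryo peak alone, whether or not the endosperm peak was listed. Among 231 pairs with a gene-linked embryo peak, the median lengths were 346 bp and 223 bp. The centres lay 43.5 bp apart at the median. In 131 pairs (56.7%) the endosperm peak lay wholly inside the embryo peak, and in 195 (84.4%) the embryo peak was longer. Among 606 pairs whose embryo peak had no gene part, the endosperm peak lay inside in 63.7% and the embryo peak was longer in 89.4%. The partner of an overlapping gene-linked embryo peak was listed for the same gene and part in 231 of 244 cases (94.7%). For endosperm this was so in 233 of 270 cases (86.3%), and in 35 cases (12.96%) the embryo partner had no gene part listed. Embryo peaks without a partner had a median gap to the closest endosperm peak of 6166 bp for the 622 gene-linked ones and 6658.5 bp for the others. The 96 unshared gene-linked endosperm peaks had a median gap of 1636.5 bp and the others 1560.5 bp.

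The strongest gene-linked peak of embryo lay on a pair of neighbouring genes. It ran over 1000 bp from 17710634 to 17711633 with a score of 772, in the promoter of GRMZM2G109586 and in the CDS and TTR of GRMZM5G890758. It overlapped 3 endosperm peaks, of which that from 17711328 to 17711612 had a score of 124 and that from 17710765 to 17710937 one of 56.2. A broad embryo peak thus faced several short endosperm peaks. Positions count from 1 and follow the deposited lists, whose genome build is not given in the sources used here.

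The embryo promoter peaks ranked 2 and 3 by score also had an endosperm partner inside them. Not every strong one did, and that of GRMZM5G880508 (score 457), described below, had none. A peak from 13300582 to 13301283 (702 bp, score 608), in the promoter of GRMZM2G487269 and the TTR of GRMZM2G008627, held an endosperm peak from 13300876 to 13301127 with a score of 87.4. In the promoter of GRMZM2G495769 the embryo peak from 4819494 to 4819980 had a score of 577 and the endosperm peak inside it one of 92.1. No product name was at hand for these genes. Scores are ranked within a library only, since their scale may differ between libraries, and scores of both tissues are given side by side without an order.

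In the gene body, the embryo peak in the CDS of GRMZM2G010407, from 13150789 to 13152195, was the longest gene-linked one, at 1407 bp, with a score of 528. It overlapped 2 endosperm peaks. One of these, from 13150823 to 13151526 (score 156), was listed for the promoter of the same gene, and a further endosperm peak 102 bp away, from 13152298 to 13152657 (84.5), for its CDS and TTR. The long embryo peak wholly holds this promoter peak of endosperm too, but for the promoter the embryo listing names a peak at a lower position, from 13150113 to 13150606 (70.9). GRMZM2G091939 had overlapping peaks at both ends: in the promoter, from 14551923 to 14552406 in embryo (score 125) and from 14552030 to 14552279 in endosperm (53.9), and in the CDS and TTR, from 14553403 to 14553884 (528) and from 14553434 to 14553828 (96.0).

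The strongest intron peak of embryo, in GRMZM5G880508, lay from 22251128 to 22251520 with a score of 488, and held an endosperm peak of 155 bp with a score of 54.1. The promoter of this gene had the strongest gene-linked embryo peak with no endosperm partner, from 22244865 to 22245409, with a score of 457 and the closest endosperm peak 5751 bp away. One gene thus had a shared intron peak and an unshared promoter peak. Next in score among the unshared ones was the CDS peak of GRMZM2G113763, from 19704399 to 19704769 (score 447), 39547 bp from any endosperm peak. The TTR of that gene held another, from 19703626 to 19703948 (342).

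In endosperm, the strongest gene-linked peak was that in the TTR of GRMZM2G586086, from 12242713 to 12243169, with a score of 277. The embryo peak over it, from 12242719 to 12243218, had a score of 370.0. The next lay from 160149 to 160683 (score 247), in the promoter, CDS and intron of GRMZM2G006128 and the promoter of AC177838.2_FG015, over an embryo peak from 160199 to 160569 (208). Here the endosperm peak was the longer of the pair. The endosperm peak in the promoter and CDS of GRMZM2G560484, from 331763 to 332699 (937 bp, score 232), was likewise longer than its embryo partner of 805 bp (278).

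At scores of 150 or more, 3 of the 36 gene-linked endosperm peaks were unshared. All 56 endosperm peaks with no gene part overlapped an embryo peak at these scores. The difference of the overlap shares was -8.33 points, with an interval (-21.8 to 0.09) that includes 0. The first of the 3 unshared peaks by score lay from 19646999 to 19647452 (454 bp, score 184). It was in the promoter, CDS and TTR of GRMZM2G581348, 8588 bp from the closest embryo peak. The second was in GRMZM2G587606, annotated as subunit VIII of the cytochrome b6/f complex, which passes electrons between the photosystems. Its CDS and TTR carried an endosperm peak of 1673 bp, from 8187556 to 8189228 (score 178), and its promoter one of 737 bp, from 8186027 to 8186763 (55.4), and the closest embryo peaks lay 6572 bp and 9037 bp away. The small subunits of this complex are partly encoded by the plastid genome, and reads that a plastid copy could share with this position were not examined here. The third lay from 6567657 to 6567940 (score 169) in the TTRs of GRMZM2G137367 and GRMZM2G137374, 5201 bp from an embryo peak.

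Counted by gene, 891 genes had a listed peak in embryo and 435 in endosperm, 932 in either tissue. With UTR entries included, as first planned, these counts were 1020 and 496, with 407 and 203 genes holding a body peak and 126 and 39 a peak in both promoter and body. Without them, 497 genes in embryo and 188 in endosperm had a promoter peak, 277 and 141 a body peak (CDS, exon or intron), and 471 and 221 a TTR peak. Promoter and body were both marked in 125 embryo genes (14.0% of the genes listed, 11.9 to 16.5) and in 38 endosperm genes (8.74%, 6.43 to 11.8), 5.29 points apart (1.59 to 8.65). A promoter peak without a body peak was found in 372 and 150 genes, a body peak without a promoter peak in 152 and 103, and a TTR peak alone in 242 and 144. Most genes had a single peak, 634 of 891 in embryo and 363 of 435 in endosperm, and the most were 4 and 3.

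Nearly all genes listed in endosperm were also listed in embryo. The 394 genes common to both make up 44.2% of the embryo genes (41.0 to 47.5) and 90.6% of the endosperm genes (87.5 to 93.0), while 497 genes were listed in embryo alone and 41 in endosperm alone. By zone, 148 promoters were marked in both tissues, which is 29.8% of those of embryo and 78.7% of those of endosperm. For the gene body the 119 common genes were 43.0% and 84.4%, and for the TTR 186 genes were 39.5% and 84.2%. Embryo promoters were thus the zone with the lowest share in common. The interval of the promoter share (25.9 to 33.9) lies below those of the body (37.3 to 48.8) and the TTR (35.2 to 44.0). This share is bounded by the number of endosperm genes in the zone, 188 for the promoter, 141 for the body and 221 for the TTR. Seen from endosperm, the intervals overlap: 72.3 to 84.0 for the promoter, 77.5 to 89.5 for the body and 78.8 to 88.4 for the TTR. In a zone marked in both tissues, the listed peaks overlapped in 118 of 148 promoters (79.7%), 82 of 119 bodies (68.9%) and 144 of 186 TTRs (77.4%). Where they lay apart, the listed endosperm peak overlapped another embryo peak in 14 of 30 promoters, 20 of 37 bodies and 25 of 42 TTRs. In those cases the tissues coincided, and only the listed embryo peak differed. In the remaining cases the endosperm peak overlapped no embryo peak.

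**Figure D5:**
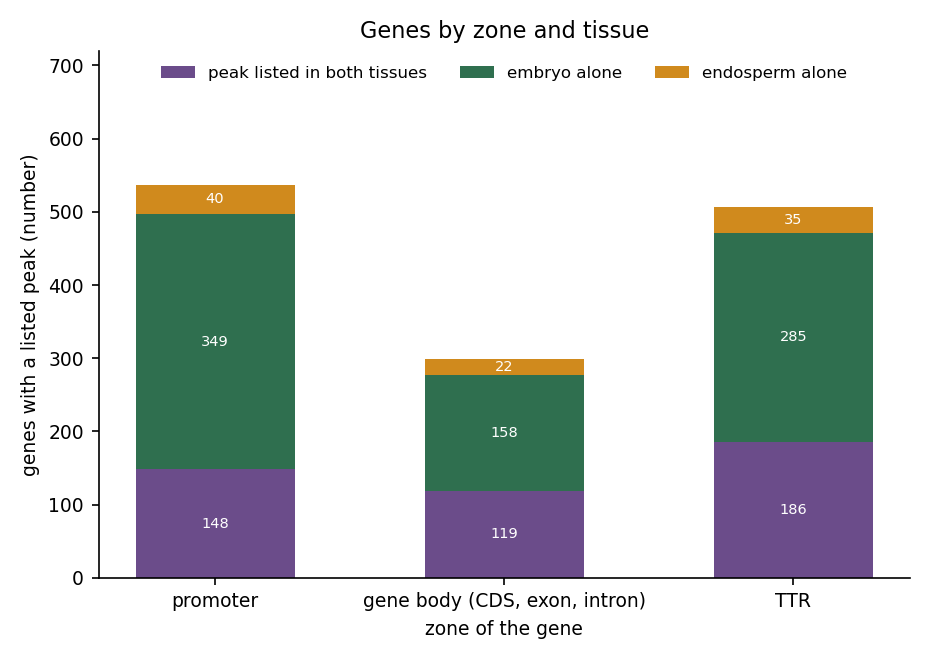
Number of genes (y axis) with a listed peak in the promoter, gene body or TTR (x axis), stacked as listed in both tissues (purple), in embryo alone (green) and in endosperm alone (orange), with UTR entries left out. Embryo alone holds 349 promoters, 158 bodies and 285 TTRs, and endosperm alone 40, 22 and 35.

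All 3 zones were marked in 57 genes of embryo and 15 of endosperm, and in 10 genes in both tissues. GRMZM2G176144 was 1 of the 10. Its body carried peaks from 8212567 to 8213533 in embryo (967 bp, score 168) and from 8212694 to 8213490 in endosperm (797 bp, 136), and its TTR from 8219559 to 8220160 (237) and from 8219673 to 8220144 (96.4). Its 2 promoter peaks of embryo were listed for different transcripts. The first lay from 8211958 to 8212329 (score 127), without a partner. The second lay from 8216785 to 8217232 (162), over an endosperm peak of 343 bp (134). The endosperm body peak was also listed for the promoter. The embryo body peak wholly holds it, but for that promoter the embryo listing names the peak from 8211958. In GRMZM2G136090 the tissues coincided in each zone: the TTR peak had scores of 318 in embryo and 130 in endosperm, the intron peak 119 and 132, and the promoter peak 136 and 58.4. GRMZM2G018417 had its promoter peaks near 8341015 and its TTR peaks near 8314490, with overlap in the promoter and CDS but not in the TTR, where the embryo peak (68.0) and the endosperm peak (59.98) were each unshared.

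Product names or GO terms were at hand for 134 of the 932 genes, from the part used here of the study's own annotation of methylated genes. Of these, 97 (72.4%) were listed in both tissues, against 42.3% of all genes listed, so the annotated genes are not a sample of the rest, and their counts describe only themselves. The lists below were drawn up with earlier results of these data known.

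Genes of mobile elements formed the largest annotated list, with 20 genes that carry transposon or retrotransposon names or terms such as DNA integration. All 20 had a body peak in embryo and 17 had one in endosperm, whereas 9 had a promoter peak in embryo and 2 in endosperm. Among all genes listed, 277 of 891 (31.1%) had a body peak in embryo and 141 of 435 (32.4%) in endosperm, and 497 (55.8%) and 188 (43.2%) a promoter peak. Of the 38 embryo peaks on these genes, 15 overlapped an endosperm peak, and of the 24 endosperm peaks 20 overlapped an embryo peak, beside 28.2% and 73.8% of all gene-linked peaks. AC211261.3_FG017, an Activator-like element (the family of McClintock's cut-and-paste transposon), was marked in the body and TTR in both tissues, with body scores of 160 in embryo and 86.4 in endosperm and TTR scores of 221 and 84.4. Its embryo promoter peak, from 17749804 to 17750031 (81.4), had no partner within 850 bp. In GRMZM5G837318, with the term DNA integration, the CDS peak of embryo, from 9706065 to 9706482 (204), and that of endosperm, from 9706138 to 9706514 (196), overlapped. The introns of GRMZM2G148855 held nearly the same peak in both, from 16959574 to 16959789 (123) and from 16959575 to 16959797 (113).

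The peaks listed for a mobile-element gene in the 2 tissues were not always the overlapping ones. In GRMZM2G113174, with reverse transcriptase terms, the intron peak of embryo lay from 9546106 to 9546404 (score 94.8) and that of endosperm from 9548465 to 9548659 (60.5), and neither had a partner. In GRMZM2G058632 the listed intron peak of embryo, from 1280086 to 1280407 (196), was unshared, while that of endosperm, from 1284235 to 1284485 (98.5), overlapped an embryo peak that the listing does not give for this intron. The places thus coincided there, and only the listed embryo peak differed, as was also the case in introns of GRMZM2G086093, GRMZM2G097434, GRMZM2G040158, GRMZM2G140339 and GRMZM2G319022, where the endosperm peak lay inside an embryo peak not named for that intron.

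The 6 genes of the transcription and chromatin list were all marked in the promoter in embryo, and 5 of them in endosperm too. Of all genes listed, 55.8% in embryo and 43.2% in endosperm had a promoter peak. In embryo 5 of their 7 peaks were shared, and in endosperm all 5, beside 28.2% and 73.8% of all gene-linked peaks, and with so few genes nothing particular to the list can be read from this. GRMZM2G137366, which carries the term for DNA cytosine methyltransferase activity (the enzymes that set the mark measured here), had promoter peaks from 2935300 to 2935462 in embryo (score 64.4) and from 2935238 to 2935400 in endosperm (51.5). Both scores are near the minimum of 50. GRMZM2G106017, with terms for chromatin silencing by small RNA, had a promoter peak of 890 bp in embryo, from 18430964 to 18431853 (235), over one from 18430864 to 18431342 in endosperm (86.8). In GRMZM2G124051, subunit 6 of the CCR4-NOT complex, which shortens the poly(A) tails of mRNAs, the promoter peak was shared, with scores of 355 and 119. An intron peak of this gene, from 14098944 to 14099102 (72.9), was found in embryo alone. In the transcription cofactor gene GRMZM2G114459 the promoter peaks overlapped, with scores of 121 in embryo and 120.0 in endosperm. DOF21 (GRMZM2G162749), of a plant family of zinc finger transcription factors, was the exception, with a weak embryo promoter peak from 14849831 to 14850018 (56.1) that lay 14546 bp from any endosperm peak.

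Of the 9 genes of redox and stress, 6 were listed in both tissues, beside 72.4% of all annotated genes. A TTR peak in embryo was listed for 8 of them, where 471 of all 891 genes listed (52.9%) had one. The 3 listed in embryo alone are detoxifying enzymes. Catalase2 (GRMZM2G090568), which breaks down hydrogen peroxide, had a TTR peak from 7159736 to 7159907 (score 82.1), 3202 bp from the closest endosperm peak. The glutathione S-transferase genes GST 31 (GRMZM2G475059) and GST 11 (GRMZM2G119499), whose products couple glutathione to foreign compounds, had a promoter peak from 8115080 to 8115490 (125) and a TTR peak from 7824135 to 7824305 (61.6), with gaps of 12391 bp and 22463 bp. On the shared side, GRMZM2G075901, with the term peptide-methionine (R)-S-oxide reductase activity, for the repair of oxidised methionine, had an embryo TTR peak from 8042087 to 8042427 (238) over an endosperm one from 8042174 to 8042424 (194). The gene of a heat shock protein binding protein, GRMZM2G176499, had a shared TTR peak (247 and 52.1) and an unshared embryo promoter peak (81.9).

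Of the 8 genes of protein synthesis and turnover, 6 were listed in both tissues, beside 72.4% of all annotated genes. GRMZM2G333777 and GRMZM5G849989 are in this list and in that of redox and stress. Their peak numbers and summed scores (395.25) are the same, so they may stand for the same peaks. The promoter peaks of GRMZM2G056870, a proteasome gene by its terms, had scores of 179 in embryo and 111 in endosperm and overlapped. Those of GRMZM2G024099, the aspartic proteinase nepenthesin-1, were an embryo peak from 18188194 to 18188442 (90.6) and an endosperm peak from 18188162 to 18188411 (106), which overlapped. The genes of translation initiation factor 4B (GRMZM2G474973) and 40S ribosomal protein SA (GRMZM2G092719) were listed in embryo alone, the former with a promoter peak 552 bp from an endosperm peak (score 95.5) and the latter with a TTR peak 29290 bp from one (76.6). GRMZM2G109725, a ubiquitin ligase gene by its terms, was listed in the TTR in both tissues (197 and 151). The listed peaks lie 451 bp apart, but the endosperm peak lies inside an unlisted embryo peak from 2206981 to 2207580 with a score of 724.

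The lists of signalling and of transport held 4 genes each, with 3 of them in both tissues, beside 72.4% of all annotated genes. The promoter of the kinase gene GRMZM2G124550 had overlapping peaks with scores of 315 in embryo and 86.4 in endosperm, and the TTR of the kinase gene GRMZM2G371137 of 336 and 204. The kinase gene GRMZM2G176604 had an embryo promoter peak from 5405655 to 5405931 (204) that lay 29903 bp from any endosperm peak. In the transport list, the peak in the TTR of the calcium pump gene GRMZM2G006977, from 22377212 to 22377776 in embryo (343) over one from 22377279 to 22377482 in endosperm (77.3), is also listed for the TTR of GRMZM2G007130, a D-type cyclin gene of cell cycle entry. The hexose carrier gene HEX6 (GRMZM2G374812) had an embryo TTR peak alone (61.8). The 3 imprinting genes of the study with a listed peak in the segment were all marked in the promoter in embryo. Of all genes listed in embryo, 55.8% had a promoter peak. With so few genes nothing particular to them can be read from this. Of the 3, GRMZM2G474194 alone had a listed peak in endosperm, in its TTR, beside 42.3% of all genes with listed peaks in both tissues. The embryo promoter peak of this gene, from 1662632 to 1663163, also overlapped an endosperm peak, from 1662767 to 1663094 (score 108), that was not listed for it.

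Among other annotated genes, the beta-galactosidase gene GRMZM2G417455, of cell wall and sugar metabolism, was marked at both ends in embryo alone. Its promoter peak, from 13691368 to 13691875 (508 bp), had a score of 293 and lay 25897 bp from any endosperm peak, and its TTR peak, from 13682270 to 13682496 (75.6), lay 16799 bp from one. The alpha-L-fucosidase 2 gene GRMZM5G873767 had an unshared embryo peak in its CDS, from 20044276 to 20044730 (115). In contrast, GRMZM2G097283, annotated as 1,4-dihydroxy-2-naphthoate octaprenyltransferase, was marked at opposite ends: embryo had a peak in the TTR alone, from 19560388 to 19560558 (68.3), and endosperm in the promoter alone, from 19555502 to 19555732 (106). In the TTR of the mannosyltransferase gene GRMZM2G045979 the embryo peak (227) and the endosperm peak (62.9) lay 351 bp apart, so the gene counts as marked in both tissues with no peak in common.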

How the data were processed

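MeDIP libraries of embryo and endosperm were analysed, 1 of each. After cleaning with fastx, the authors mapped reads by Bowtie2 (version 2.0.5 in the submitters' processing notes) and ran MACS on either library alone. They deposited the position and score of each peak, without a header or read numbers. The deposited score is what MACS derives from a peak's p-value, and its minimum in both lists is 50. It depends on the depth and enrichment of its library. The genome build and an input library are not given in the sources used here. The study describes a read number for each peak of its gene-region listing, but read numbers were not used here.

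Starts, deposited as counted from 0, were made 1-based. Gene parts came from the study's gene-region listing of each tissue, in which each entry of the segment matched a deposited peak by start and end. Only a part of each listing was used, and the segment ends where the embryo entries used here end, at position 22623587. The last embryo peak may have further entries that were not used here. Overlap meant at least 1 bp. Shares have 95% Wilson intervals and differences Newcombe intervals, and no test was made because each tissue had 1 library. Gene body is UTR, CDS, exon or intron for peaks, and CDS, exon or intron for genes.

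Named were genes with a product name, mobile element class or imprinting mark in the study's annotation, genes of the 3 highest-scoring peaks of each part and tissue, the 5 genes with the most peaks, and up to 5 genes marked in promoter, body and TTR in both tissues. Those printed are a selection from these. Genes named by GO terms alone, from the gene lists, and the unshared peaks GRMZM2G113763, GRMZM2G581348, GRMZM2G137367 and GRMZM2G137374 were chosen after their values were seen. The members and lists were chosen with earlier results of these data known. RefSeq (Zm-B73-REFERENCE-NAM-5.0) was used only to look up the chromosomes of gene names.

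Python 3.11.15, numpy 2.4.6, statsmodels 0.14.6 and matplotlib 3.10.9 were used. The overlap code was tested on 1070 simulated peaks, embryo against endosperm, and its counts on the real lists were set beside those of bedtools 2.31.1. In all, 7 of 7 checks gave the known number. Alternatives were a score of at least 100, the first 10 Mb, other overlap rules, joined peaks, single parts and first transcripts. Reads in peaks and CpG islands were not analysed here.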

Additional observations from a re-analysis of the deposited data

How the results depend on the processing

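No reported value reversed its sign, and 71 values under other settings stayed within the limits set for them. These limits were the counting interval, a factor of 1.5 for counts of genes, and the quartiles of peak length for median lengths. The quartiles are wide, so a median inside them can still have shifted. The minimum score moved most of the others. At a score of at least 100 for the peaks counted, the gene-linked share was 26.5% in embryo and 37.4% in endosperm. Median lengths were then 357 bp on genes and 381.5 bp elsewhere in embryo, against 274 bp and 281 bp over all scores. In endosperm they were 320 bp and 329 bp. The embryo to endosperm ratios were 4.54 and 7.51. Overlap at this score was 42.7% of gene-linked and 38.6% of other embryo peaks, and 89.5% and 95.6% in endosperm. With a score of at least 100 in both lists it was 15.3% and 11.9%, and 80% and 83.6%. The embryo difference of gene-linked and other peaks was then 4.08 points (-1.29 to 9.52) and 3.42 points (-0.24 to 7.50), with intervals that include 0. Peaks within 200 bp taken as overlapping gave 26.5% and 81.5% for embryo and endosperm peaks with no gene part, and an endosperm difference of -4.98 points (-10.2 to -0.06). Joining peaks within 500 bp gave a gene-linked share of 26.8% in embryo, and the first 10 Mb alone 34.0% in endosperm.

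Genes with a listed peak scoring at least 100 numbered 606 in embryo and 152 in endosperm, with UTR entries included. Of these, 257 and 53 had a promoter peak, 232 and 68 a body peak and 46 and 13 both. Among peaks listed for 1 kind of part, the embryo overlap share was 22.3% for promoter, 12.5% for CDS or exon (16 peaks) and 100% for the 5' UTR (1 peak), and in endosperm 100% for CDS or exon (6 peaks). The 5' UTR and CDS classes are thus almost wholly made of peaks listed for several parts.

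Settings chosen after seeing the data were the gene part taken over from a peak lying inside (gene-linked ratio 2.43, though only peaks that hold a listed peak of the other tissue could change class), the peaks with no gene part within 5000 bp of a listed peak left out or counted as gene-linked, and the UTR entries left out of gene counts. With them left out, the embryo difference was 6.01 points (2.61 to 9.53) and the endosperm difference -3.49 points. Counted as gene-linked, these peaks gave a gene-linked ratio of 2.96 and gene-linked shares of 39.2% in embryo and 40.4% in endosperm, while the overlap differences were 5.80 points (2.91 to 8.73) and -2.52 points (-7.55 to 2.38). No paired analysis was possible because each tissue has 1 library and no result comes from a test. With 1 library per tissue, the tissue and the library cannot be told apart. Promoter and TTR windows of unknown length and the 1 peak named per transcript region limit the comparison of gene parts. Read numbers, which were not used here, are a further limit.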
